A study of Mus musculus with 24 samples.

Results

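Mm054, Mm061 and Mm062 are 3 of the 120 mouse probes on a focused two-colour liver array, chosen because their ratios of phenobarbital-treated over vehicle liver were high in mice without the nuclear receptors CAR and PXR. They were found by probe name, with 3 copies of each on every array, and all 3 were among the 80 probes bright enough to be tested. The ratios in CAR/PXR-deficient liver, and their distance from those in wild-type (WT) liver, chose the members, so these values are given as a description with no test. The files pair no probe with a gene, so the probes are given by number, with no sequence and no function.

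CAR (constitutive androstane receptor) and PXR (pregnane X receptor) are nuclear receptors of the hepatocyte that sense foreign compounds and, bound to DNA with the retinoid X receptor as partner, switch on genes of drug oxidation, conjugation and transport. Phenobarbital, a barbiturate, is the classic activator of CAR and also activates PXR, and both receptors touch genes of cholesterol and bile acid metabolism. A ratio in mice labelled as lacking both receptors compares treated liver with pooled vehicle liver of that genotype. It also holds the level of that pool and any dye bias of the probe.

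All mice were male C57BL/6J. The 4 groups were WT, CAR-deficient, PXR-deficient and CAR/PXR-deficient, with 6 arrays each; the deficient mice were 9 to 12 weeks old, and no age is given for WT. On every array Cy5 held liver RNA taken 12 h after an intraperitoneal dose of 100 mg/kg phenobarbital, and Cy3 held liver RNA pooled from 6 replicates of that genotype, 1 pool each, after vehicle alone (5% DMSO in corn oil). Dyes were not swapped, so a dye bias of a probe is not cancelled in a ratio but cancels in a difference between genotypes. The labels name the deficiencies without describing the alleles or the cells that lack the receptors. Nor do they say whether replicates are separate mice, so p-values measure the spread between these samples only. Each genotype has 1 pool, so p-values, SEs and intervals hold no spread between pools. Because the probes carry no gene names, neither the receptors' own transcripts nor markers of liver cells could be used to check the labels. In RNA of whole liver, fewer cells of a type and less RNA per cell cannot be told apart.

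Some libraries stood apart. PXR-deficient replicates 1 and 2 differed by no more than the noise between copies of a probe (variance of their difference 1.04 times that expected, against 1.79 to 53.0 for the other 59 of 60 pairs within groups) and were counted as 1 sample, replicates 1-2, which left 23 samples. WT replicates 2 and 6 were the next most alike pair. Before normalization the median log2 ratio of an array ran from -2.20 to 1.36 (CAR/PXR-deficient replicates 1 and 2 at -2.20 and -2.12, CAR-deficient replicates 5 and 6 at -0.95 and -1.02). After loess normalization the median group mean over all tested probes lay between -0.01 and 0.01 in every genotype. Values per array are log2 of Cy5 over Cy3 after background correction and loess, so 1 is a doubling.

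Mm061 had the highest mean ratio of all 80 tested probes in CAR/PXR-deficient liver. Its log2 ratio there was 1.35, 1.36, 1.85, 1.84, 1.34 and 0.82 in replicates 1 to 6, a mean of 1.43 ± 0.38 (SD, n = 6), or 2.69-fold. Every array of this group was above 0. In WT liver it was -0.01, -1.47, -0.22, 0.30, 0.05 and -2.11 in replicates 1 to 6 (-0.58 ± 0.98, SD, n = 6). The 2 low WT values were replicates 2 and 6, the nearly alike pair, while the other WT arrays lay within 0.30 of 0. In these 2 arrays the Cy5 signal of Mm061 was not well above background (0 of 3 copies in replicate 6 and 1 of 3 in replicate 2), whereas the Cy3 signal was in all 3 copies, so the size of their fall is uncertain. Without both, the WT mean was 0.03 and the difference between CAR/PXR-deficient and WT liver was 1.4 in place of 2.0.

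The single deficiencies gave means of Mm061 in between. In CAR-deficient liver it was 0.42, 0.55, 0.84, 0.89, -0.51 and 0.36 in replicates 1 to 6 (0.43 ± 0.51, SD, n = 6). In PXR-deficient liver it was -0.43 in replicates 1-2 and 0.47, 0.59, 0.95 and 0.05 in replicates 3 to 6 (0.33 ± 0.53, SD, n = 5). The range of CAR/PXR-deficient liver, 0.82 to 1.85, overlapped both: 2 CAR-deficient arrays and 1 PXR-deficient array reached 0.84 or more. All WT values but those of replicates 2 and 6 lay within the ranges of both single deficiencies. The order of the means was thus CAR/PXR-deficient, CAR-deficient, PXR-deficient and WT. The neighbours in the middle of this order differed by less than their SDs.

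Mm054 had the next highest mean ratio in CAR/PXR-deficient liver. Its log2 ratio was 0.75, 1.05, 1.20, 2.46, 1.31 and -0.26 in replicates 1 to 6, a mean of 1.09 ± 0.88 (SD, n = 6), or 2.12-fold. The group was spread widest of all groups for this probe: replicate 4 was more than 1 log2 unit above the others, and replicate 6 lay below 0. The other genotypes were close to each other, with 0.23 ± 0.46 in WT (n = 5), 0.27 ± 0.23 in CAR-deficient (n = 6) and 0.18 ± 0.28 in PXR-deficient liver (n = 5; SD each). WT had -0.15 in replicate 1 and 0.63, 0.84, -0.08 and -0.08 in replicates 3 to 6. CAR-deficient liver had 0.06, 0.21, 0.34, -0.00, 0.62 and 0.38 in replicates 1 to 6, and PXR-deficient liver had -0.07 in replicates 1-2 and 0.30, 0.24, 0.56 and -0.12 in replicates 3 to 6. So 4 of the 6 CAR/PXR-deficient arrays lay above every array of the other genotypes, replicate 1 lay among the upper ones and replicate 6 lay below them all. Mm054 was dim in WT, where Cy5 was above background on 3 of 6 arrays and the pool on 1 of 6. WT replicate 2 gave no value because all 3 copies were flagged, and WT replicate 4, the highest of its group, rests on 1 copy. WT replicate 6 kept a value with 0 of 3 copies above background in either channel. On that array 0 percent of the probe spots were flagged, against 53.6 to 66.4 percent on WT replicates 2 to 5.

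Mm062 had a small ratio in CAR/PXR-deficient liver and stood out by its distance from WT. Its log2 ratio was 0.60, 0.21, 0.76, -0.10, 0.43 and 0.51 in replicates 1 to 6 of CAR/PXR-deficient liver (0.40 ± 0.31, SD, n = 6), or 1.32-fold. In WT liver it was -0.35, -0.48, -0.61, -0.53, -0.29 and -0.55 (-0.47 ± 0.13, SD, n = 6), or 1.38-fold lower after phenobarbital. All WT arrays were below 0 and below all CAR/PXR-deficient arrays, and 5 of the 6 CAR/PXR-deficient arrays were above 0. The means of the single deficiencies lay between: -0.10 ± 0.10 (SD, n = 6) in CAR-deficient liver, and -0.22 ± 0.32 (SD, n = 5) in PXR-deficient liver. CAR-deficient liver had -0.10, -0.02, -0.14, 0.04, -0.26 and -0.10 in replicates 1 to 6, and PXR-deficient liver had -0.14 in replicates 1-2 and -0.18, -0.05, -0.77 and 0.02 in replicates 3 to 6. CAR/PXR-deficient replicate 4, the array with the highest Mm054 ratio, had the lowest Mm062 ratio of its group and lay inside the range of the single deficiencies. The order of the means was CAR/PXR-deficient, CAR-deficient, PXR-deficient and WT, as for Mm061, and again the CAR-deficient and PXR-deficient means differed by less than the larger SD.

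Over all tested probes, 3 of 80 (3.75 percent) had every CAR/PXR-deficient sample above every WT sample, and 2 of these were Mm061 and Mm062. The third, Mm043, was found after the values were seen and had values in 2 CAR/PXR-deficient samples. Against CAR-deficient liver no probe of 78 (0 percent) was separated in this way. Against PXR-deficient liver 7 of 79 (8.86 percent) were, none of them a member. Because the members were chosen on these arrays, nothing is read from the count.

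The ratio joins 2 signals, and the channels differed in which of them moved. The levels given next are log2 intensities after loess and quantile normalization between arrays, and they are compared only within a probe. Flagged copies of the members are included in them. The Cy3 level comes from 1 pool per genotype hybridised on 6 arrays, so its SD is technical and no test between pools can be made. For Mm062 the treated level was nearly the same in CAR/PXR-deficient and WT liver (11.27 ± 0.16 and 11.27 ± 0.13, SD, n = 6 each). Its pool level was 10.87 ± 0.22 in CAR/PXR-deficient and 11.74 ± 0.25 in WT liver, with 11.38 in CAR-deficient and 11.18 in PXR-deficient liver. The Cy3 values were 11.50, 11.84, 12.04, 11.75, 11.39 and 11.90 in WT replicates 1 to 6 and 10.77, 11.00, 10.49, 11.09, 10.92 and 10.95 in CAR/PXR-deficient replicates 1 to 6. The higher ratio of Mm062 thus stood on a lower pool level, and the highest CAR/PXR-deficient pool value (11.09) was below the lowest WT one (11.39).

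For Mm061 both channels differed. The treated level was 11.44 ± 0.24 in CAR/PXR-deficient liver, 11.27 ± 0.65 in CAR-deficient, 10.46 ± 1.02 in WT (n = 6 each) and 10.39 ± 0.56 in PXR-deficient liver (n = 5; SD each). The pool level was 10.01 ± 0.18 in CAR/PXR-deficient, 10.05 ± 0.27 in PXR-deficient, 10.84 ± 0.31 in CAR-deficient and 11.04 ± 0.22 in WT liver (SD, 6 arrays each). The treated values were 11.54, 11.38, 11.65, 11.65, 11.41 and 11.02 in CAR/PXR-deficient replicates 1 to 6 and ran from 10.06 to 11.83 in CAR-deficient liver, where replicate 5 was the low one. After this normalization CAR/PXR-deficient liver therefore had a treated level near that of CAR-deficient liver and a pool level near that of PXR-deficient liver. The highest pool value of CAR/PXR-deficient liver (10.20) was below the lowest values of CAR-deficient liver (10.57) and WT (10.63).

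For Mm054 the group means differed mainly in the treated channel. Against PXR-deficient liver the pool level was also lower, and in CAR/PXR-deficient replicate 3 the ratio stood on a low pool level. Its treated level was 10.71 ± 0.85 in CAR/PXR-deficient (n = 6), 10.07 ± 0.35 in PXR-deficient (n = 5), 9.75 ± 0.79 in CAR-deficient and 9.40 ± 0.58 in WT liver (n = 6 each; SD each). Its pool level was 9.63 ± 0.42 in CAR/PXR-deficient liver, between 9.52 ± 0.57 in CAR-deficient and 9.90 ± 0.13 in PXR-deficient liver, with 9.20 ± 0.55 in WT (SD, 6 arrays each). In CAR/PXR-deficient replicates 1 to 6 the treated level was 10.52, 10.83, 10.00, 12.14, 11.00 and 9.77, and the pool level was 9.77, 9.78, 8.80, 9.68, 9.70 and 10.03. Replicate 4 was thus high in the treated channel alone, and the treated levels of this group overlapped those of every other genotype.

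These pool differences depend on the scaling. Without normalization of the channels the Cy3 mean of Mm061 was 0.13 higher in CAR/PXR-deficient than in WT liver, where the normalized difference was -1.02, and that of Mm062 was 0.45 higher, against -0.87. The Cy3 mean of Mm054 was then 1.24 higher, against a normalized difference of 0.43. It was also 0.50 higher than in PXR-deficient liver. For Mm061 the unnormalized Cy3 mean of CAR/PXR-deficient liver was 0.81 above PXR-deficient and 0.24 above CAR-deficient liver. So it no longer lay near PXR-deficient liver, and its range (10.27 to 11.55) overlapped that of CAR-deficient liver (10.04 to 10.94). With each channel centred on the median of the tested probes the differences were -1.02 for Mm061, -0.70 for Mm062 and 0.09 for Mm054. Whether a pool or a response differed between genotypes cannot be told apart, because each genotype has 1 pool.

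The rank of a probe within an array does not depend on how arrays are centred. Ranks on CAR/PXR-deficient and WT arrays rework the values that chose the members, so they are descriptions and no independent support. On CAR/PXR-deficient arrays Mm061 ranked 3, 1, 1, 2, 1 and 2 from the top in replicates 1 to 6, among 71 to 78 tested probes with a value, so it was always among the highest. Mm054 ranked 5, 3, 2, 1, 2 and 58, and Mm062 ranked 7, 22, 3, 46, 10 and 9. Before normalization Mm061 ranked 1 to 3 on the same arrays, and Mm054 ranked 1 to 6 on all of them but replicate 6, where it ranked 49. High ranks of Mm061 were not limited to this genotype: it ranked 1 on CAR-deficient replicates 3 and 4 and within the first 5 on replicates 1, 2 and 6, but 75 of 78 on replicate 5. On WT replicates 2 and 6 it had the lowest ratio of the array (45 of 45 and 80 of 80). Mm062 ranked 70 of 77, 40 of 45, 56 of 60, 47 of 56, 41 of 53 and 70 of 80 on WT replicates 1 to 6, so it was in the lower part of every WT array. Before normalization its ranks on these arrays were 64, 34, 51, 42, 26 and 47, so replicate 5 was then in the upper part and replicate 6 near the middle.

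The members were named for ratios high without both receptors, and the tests were chosen with earlier results of these data known. The mean log2 ratio with 1 receptor missing was tested against 0, but these tests are not independent of that choice. A test against 0 does not cancel a dye bias of the probe or the level of the pool. No member passed the threshold of an adjusted p of 0.05 in CAR-deficient liver (0 of 3, against 0 percent of all 78 tested probes; 12 of the 78, or 15.4 percent, had an unadjusted p under 0.05, none of them a member). The log2 ratios were 0.43 (SE 0.25, limma adjusted p = 0.394) for Mm061, above 0 in 5 of 6 samples, and 0.27 (SE 0.21, limma adjusted p = 0.526) for Mm054, above 0 in 5 of 6. Mm062 had -0.10 (SE 0.10, limma adjusted p = 0.629), below 0 in 5 of 6 samples. The outcome depends on the fit, which takes the spread of a probe from all 4 groups, among them those that chose the members. The SD of Mm054 was 0.23 in CAR-deficient, 0.46 in WT and 0.88 in CAR/PXR-deficient liver. That of Mm061 was 0.51, 0.98 and 0.38 in the same order. With the CAR-deficient arrays fitted alone the SEs were 0.14 for Mm061 and 0.084 for Mm054. Both then passed at unchanged ratios (limma adjusted p = 0.0471 and 0.0430), as did 18 of all 78 probes. The lack of calls in the shared fit is thus not read as a lack of response. With centring on spike-ins all 3 members passed, as did 54 of 78 probes, and in the authors' value table all 3 passed, as did 35 of 79. In these last settings, where the median of all probes was shifted by 0.65 and 0.61, the sign of Mm062 turned, to 0.64 (limma adjusted p = 0.0137) and 0.75 (limma adjusted p = 0.0198).

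In PXR-deficient liver no member passed either (0 of 3, against 32.5 percent of all 80 tested probes). Mm061 had 0.33 (SE 0.27, limma adjusted p = 0.403), above 0 in 4 of 5 samples, and Mm054 had 0.18 (SE 0.23, limma adjusted p = 0.565), above 0 in 3 of 5. Mm062 came nearest with -0.22 (SE 0.11, limma adjusted p = 0.0998; unadjusted p = 0.0461), below 0 in 4 of 5 samples, and was the only member with an unadjusted p under 0.05, which 46.2 percent of all tested probes had. Its value was carried by replicate 5 at -0.77, without which the mean was -0.09 (limma adjusted p = 0.591). With centring on spike-ins Mm061 passed at 0.80 (limma adjusted p = 0.0377), as did 25 of all 80 probes, and the sign of Mm062 turned there, to 0.43, and in the authors' value table, to 0.28, without passing.

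Between PXR-deficient and CAR-deficient liver no member differed past the threshold, nor at an unadjusted p under 0.05 (0 of 3, against 19.2 percent of 78 past the threshold and 32.1 percent unadjusted). The difference, PXR-deficient minus CAR-deficient, was -0.10 for Mm061 (95 percent interval -0.85 to 0.65, limma adjusted p = 0.941), -0.08 for Mm054 (-0.72 to 0.55, limma adjusted p = 0.941) and -0.12 for Mm062 (-0.42 to 0.17, limma adjusted p = 0.657). The interval of Mm061 leaves room for a difference of 0.85 below 0 or 0.65 above it. The single deficiencies are thus not shown to be alike. All arrays of a genotype share 1 pool, so these intervals hold no spread between pools. For Mm061 the normalized treated level was 11.27 in CAR-deficient and 10.39 in PXR-deficient liver, and the pool level was 10.84 and 10.05. The small difference in its ratio thus joins 2 channels that both differed.

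Set against the genotypes that keep 1 receptor, the CAR/PXR-deficient ratios were higher by 1.0 (SE 0.35) than the CAR-deficient and by 1.10 (SE 0.36) than the PXR-deficient ones for Mm061. For Mm054 these differences were 0.82 (SE 0.29) and 0.90 (SE 0.31), and for Mm062 they were 0.50 (SE 0.14) and 0.62 (SE 0.14). Against WT they were 2.0 (SE 0.35) for Mm061, 0.85 (SE 0.31) for Mm054 and 0.87 (SE 0.14) for Mm062. These values are descriptions, since the arrays chose the members, and the comparisons share the CAR/PXR-deficient samples. All 9 differences stayed above 0 under every alternative tried and with each sample left out in turn. Relative to the median of all tested probes, the difference from WT was 2.06, 0.92 and 0.93 for Mm061, Mm054 and Mm062. With centring on spike-ins, which shifted that median to 1.45, it was 2.08, 1.14 and 0.78, and in the authors' value table, where the median was 1.52, it was 2.12, 1.07 and 1.01.

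The members did not move as 1 set from sample to sample. Over the samples that measured both, the log2 ratios of Mm061 and Mm062 had a Pearson r of 0.63 (23 samples), those of Mm054 and Mm061 of 0.60 (22 samples) and those of Mm054 and Mm062 of 0.20 (22 samples). After the group means were removed these values were -0.05, 0.37 and -0.61, so the likeness of Mm061 and Mm062 lay between the genotypes rather than between arrays of a genotype. These are descriptions: the arrays of a genotype share their pool and each array its normalization. A likeness between genotypes comes with the choice of the members by their values in CAR/PXR-deficient and WT liver.

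The probes most like each member were found among the 77 other tested probes plus the members themselves, over at least 18 shared samples. For Mm054 they were Mm005 (r = 0.78, 21 samples) and Mm088 (r = 0.70, 19 samples). Mm005 averaged 0.56 ± 0.56 in CAR/PXR-deficient liver and -0.11 ± 0.62 in WT, and Mm088 averaged 0.51 ± 0.42 and 0.03 ± 0.05. For Mm061 they were Mm072 (r = 0.81, 23 samples) and Mm043 (r = 0.76, 18 samples). Mm072 averaged 0.32 ± 0.32 in CAR/PXR-deficient liver and -0.08 ± 0.38 in WT, a smaller span than that of Mm061. Mm043 averaged 0.17 ± 0.03 (n = 2) in CAR/PXR-deficient liver, below 0.22 in CAR-deficient and 0.31 in PXR-deficient liver, and -0.17 ± 0.30 in WT, so its order of genotypes was not that of Mm061. For Mm062 they were Mm061 and then Mm030 (r = 0.60, 21 samples), which averaged 0.26 ± 0.11 in CAR/PXR-deficient liver and -0.12 ± 0.22 in WT.

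Probes of neighbouring number did not show the same values. Mm055 was measured well enough to be tested and had -0.30 ± 0.17 (SD, n = 6) in CAR/PXR-deficient liver, with 0.01 in WT, -0.02 in CAR-deficient and -0.24 in PXR-deficient liver. Mm063 had -0.19 ± 0.33 (SD, n = 5) in CAR/PXR-deficient liver. Mm053 and Mm060 were too dim to be tested, with values on 4 and 2 of the 23 samples. On the array Mm054 and Mm062 were printed in block 1 and Mm061 in block 2, and no copy of a member was saturated on any array. Copies agreed closely: the median SD between the copies of a probe on an array was 0.10 for Mm061, 0.09 for Mm062 and 0.15 for Mm054.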

How the data were processed

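Per the file headers, each array's deposited file lists, per spot and channel, pixel intensity (mean and median), local background with its SD, percent of saturated pixels and a flag. The criteria for flags are not known here. The authors' deposited value table holds log2 ratios: its columns correlated at r of 0.79 to 0.99 with the unnormalized log2 Cy5/Cy3 ratios, which also gave their direction. How the authors centred it is unknown, and its array medians ran from -0.43 to 2.95. The Cy3 channel of WT replicate 1 carries a phenobarbital treatment tag against a source name and protocol that give the vehicle pool, and was read as the pool.

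With R 4.3.3 and limma 3.58.1, background was corrected by normexp (offset 50) applied to mean intensities. Loess within each array was fitted on unflagged probe spots alone (weight 0 for controls), then flagged spots were dropped and the copies of a probe averaged. A probe was tested if at least 2 of its spots exceeded the local background by 2 SD in either channel on at least 12 of the 24 arrays. The 23 samples entered 1 fit of group means (lmFit and eBayes), with p-values adjusted by the Benjamini-Hochberg method over all tested probes of a comparison at 0.05. Channel levels came from Aquantile normalization of the loess values. The fit and the intensity steps were tested on simulated data. Precision is limited by the number of arrays.

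The members, the lists and the tests were chosen with earlier results of these data known. The named probes are the 3 members, the 2 probes most correlated with each and the 4 neighbours in number. Gene lists and cell type markers that had been set down for this work were not used, because no table here pairs probes with genes.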

Additional observations from a re-analysis of the deposited data

Results flagged for a closer look

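The highest or lowest sample of a group was compared with its nearest neighbour by Dixon's 95 percent limit in 36 sets of values (ratio, Cy5 level and Cy3 level of each member in each genotype). Chance flags about 1 in 20 such sets, and 2 passed. The Cy3 level of Mm054 in CAR/PXR-deficient replicate 3 was 8.80, below the other 5 arrays of the same pool at 9.68 to 10.03, so its ratio of 1.20 rests on a low pool signal (Cy5 level 10.00). The log2 ratio of Mm062 in PXR-deficient replicate 5 was -0.77, below the other 4 samples at -0.18 to 0.02. On that array the Cy5 level was 10.51, the lowest of the group, while the Cy3 level, 11.28, was the same as in replicate 6.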

How the results depend on the processing

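All alternatives kept the 9 differences of CAR/PXR-deficient liver from the other genotypes above 0. They rework the arrays that chose the members, so this is no independent support. Leaving out 1 sample moved the differences from WT within 1.70 to 2.18 (Mm061), 0.58 to 1.12 (Mm054) and 0.80 to 0.97 (Mm062). Settings that do not centre arrays on the probes moved many values. Centring on the calibration spike-ins assumes equal amounts in both channels, while the labels name a Lucidea scorecard for Cy5 and firefly luciferase for Cy3. With spike-in centring the CAR/PXR-deficient ratios of Mm054, Mm061 and Mm062 were 2.24, 2.61 and 1.62, their differences from WT 2.59, 3.52 and 2.22 and from PXR-deficient liver 1.65, 1.81 and 1.19; from CAR-deficient liver Mm061 and Mm062 differed by 1.47 and 0.98. The WT ratios of Mm054 and Mm062 were -0.35 and -0.60. The CAR-deficient ratios were 0.89 and 1.14 for Mm054 and Mm061 (limma adjusted p = 0.00544 and 0.00175) and 0.64 for Mm062, of opposite sign (0.0137). The PXR-deficient ratios were 0.80 for Mm061 (0.0377) and 0.43 for Mm062, also of opposite sign (0.181). In the authors' value table the CAR/PXR-deficient ratios were 2.51, 3.01 and 1.97, the differences from WT 2.59, 3.64 and 2.53, from CAR-deficient liver 1.66, 1.82 and 1.22 and from PXR-deficient liver 2.10, 2.38 and 1.69. The CAR-deficient ratios there were 0.85, 1.19 and 0.75 (limma adjusted p = 0.0198, 0.00209 and 0.0198), and the PXR-deficient ratio of Mm062 was 0.28, of opposite sign and not past the threshold. After median centring of that table the CAR-deficient ratio of Mm062 was 0.16 (0.428).

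CAR/PXR-deficient replicates 1 and 2 bear on these sizes. Without them the spike-in centred ratios were 2.20 for Mm061 and 1.19 for Mm062, with differences from WT of 2.26, 3.11 and 1.79 for Mm054, Mm061 and Mm062. In the authors' value table without them the ratios were 2.0, 2.31 and 1.32, the differences from WT 2.08, 2.94 and 1.89 and those from PXR-deficient liver 1.60, 1.69 and 1.04. With loess their loss left the ratios at 1.18, 1.46 and 0.40. This pairing of choices, the left-out CAR-deficient replicates 5 and 6, the median over copies, the channel centring and the split by Y coordinate were added after seeing the data.

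The spots' Y coordinates fell in 2 ranges. On the arrays of the lower range alone, where WT is replicate 6, Mm061 was -2.11 in WT and differed by 3.45 from it in CAR/PXR-deficient liver, and Mm062 differed by 0.23 from CAR-deficient and 0.29 from PXR-deficient liver. On the higher range alone Mm062 differed by 0.77 from CAR-deficient liver. Median centring gave -0.33 for Mm062 in WT. The difference between PXR-deficient and CAR-deficient liver, near 0 for every member, changed sign to 0.031 for Mm054 without CAR-deficient replicates 5 and 6 (limma adjusted p = 0.984), to 0.083 for Mm061 on the higher range (0.985) and for Mm062 to 0.011 with median centring (0.977) and 0.014 with scale normalization (0.964). With 1 sample left out it ran from -0.287 to 0.089 for Mm061 (above 0 without PXR-deficient replicates 1-2) and from -0.185 to 0.014 for Mm062 (above 0 without PXR-deficient replicate 5). Without channel normalization the Cy3 differences of CAR/PXR-deficient liver from WT, CAR-deficient and PXR-deficient liver were 1.24, 1.20 and 0.50 for Mm054, 0.13, 0.24 and 0.81 for Mm061 and 0.45, 0.60 and 0.66 for Mm062.

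The count of all probes called in CAR-deficient liver, 0, became 35 in the authors' value table, 54 with spike-in centring, 11 in that table after median centring, 15 with scale normalization, 20 with array quality weights and 18 with that group fitted alone, where Mm054 and Mm061 passed at 0.27 and 0.43. In PXR-deficient liver the count of 26 became 12 in the authors' value table, 15 with 3 alike pairs counted once, 14 and 13 on the lower and higher ranges and 15 to 24 with 1 sample left out (16 without replicate 3, 15 without replicate 4). Other alternatives raised it, to 33 with all 24 arrays counted and to 36 at most. Between these 2 genotypes the count of 15 became 3 in the authors' value table, 5 with spike-in centring, 23 with all flagged spots kept, 25 with array quality weights and 8 and 5 on the lower and higher ranges. The replicate numbers did not pair the samples: deviations of same-numbered samples correlated at a median r of 0.01 (-0.52 to 0.68), and with the replicate block the ratio of Mm061 was 1.43 in CAR/PXR-deficient and 0.43 in CAR-deficient liver (limma adjusted p = 0.293), with no call of a member changed. For results other than those named here the cause of a change was not tested, and Mm054 in WT, near background in both channels, is limited by its signal.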

Other observations

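The 3 copies of Mm061 on CAR/PXR-deficient replicate 1 disagreed. Their log2 ratios were 1.77, 2.11 and 0.18, an SD of 1.03 where the median over all arrays was 0.10. The Cy5 signals above background were alike at 1167, 1049 and 1118, while the Cy3 signals were 1599, 1161 and 4796, so 1 copy was bright in the pool channel alone. No copy was flagged. With the median over copies in place of the mean, the group mean of Mm061 was 1.48 in place of 1.43. The same change moved no call of a member.

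CAR/PXR-deficient replicate 6 had the lowest ratio of its group for both Mm054 and Mm061 (-0.26 and 0.82), while its Mm062 ratio, 0.51, was above the group mean. Replicate 4 had the highest Mm054 ratio of all arrays, 2.46, and the lowest Mm062 ratio of its group, -0.10. In CAR-deficient liver replicate 5 had the highest Mm054 ratio of its group (0.62) and the lowest ratios of Mm061 and Mm062 (-0.51 and -0.26).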
